A study of Mus musculus with 6 samples.

Results

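Glutamate receptors and the scaffold proteins that hold them at the postsynaptic membrane are described here by 38 mouse genes, chosen as a list of symbols by family and role. All 38 were found among the 23473 gene-symbol rows of the expression table, which has 56826 rows in all. They comprise 4 AMPA receptor subunits, 6 NMDA receptor subunits, 5 kainate receptor subunits, 1 delta receptor, 6 metabotropic receptors, 4 auxiliary subunits and 12 scaffold or CaMKII genes. RNA came from the brain of adult male C57BL/6 mice aged 8 to 9 weeks, all anesthetised with chloral hydrate and all operated on at the right carotid arteries. In the sham group (3 libraries) no filament was inserted. In the ischemia/reperfusion group (3 libraries) a silicone-coated filament blocked the middle cerebral artery for 1 h and was then withdrawn for 6 h of reperfusion, a model of ischemic stroke. The comparison asks how the abundance of these transcripts differs between the groups. The labels give neither the part or side of the brain taken nor whether the libraries are separate animals, so each p-value covers only the variation among these 6 libraries, and that variation may be technical.

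Glutamate is the main excitatory transmitter of the brain. AMPA, kainate and NMDA receptors are tetrameric ion channels, and metabotropic receptors act through G proteins. AMPA receptors carry most fast current, whereas NMDA receptors admit calcium once depolarisation has lifted their magnesium block. Under the synapse, the MAGUK proteins (the Dlg family), the SAPAP proteins (the Dlgap family) and the Shank proteins form stacked layers that tie the receptors to actin and to kinases such as CaMKII. In brain ischemia, released glutamate overactivates NMDA and AMPA receptors, a process known as excitotoxicity.

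None of the 38 genes passed an adjusted p of 0.05 between ischemia/reperfusion and sham (edgeR quasi-likelihood test, Benjamini-Hochberg over 40170 rows). Their adjusted p-values ran from 0.190 to 0.963. The same test called 1 of 40170 rows, a background of 0.00249%. The scaffold gene Shank3 had the smallest p, with a log2 fold change of 0.78, and the metabotropic receptor gene Grm4 followed with 0.54. These 2 genes, both higher, made up the 5.26% of the list with an unadjusted p under 0.05, against a background of 15.6% of all rows and 15.1% of gene-symbol rows, of which 6.39% were higher and 8.71% lower. A share below the background is not a result about these genes. For the list as a whole the median log2 fold change was 0.04, from 23 positive and 15 negative values, against −0.04 for gene-symbol rows and 0.02 for all rows. Most values were small, and 34 of 38 lay within 0.3 of 0 on the log2 scale. The standard error of a log2 fold change had a median of 0.127 and ran from 0.098 to 0.405. Tissue RNA was measured in bulk, so fewer cells of a type and less RNA per cell cannot be told apart.

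**Figure D1:**
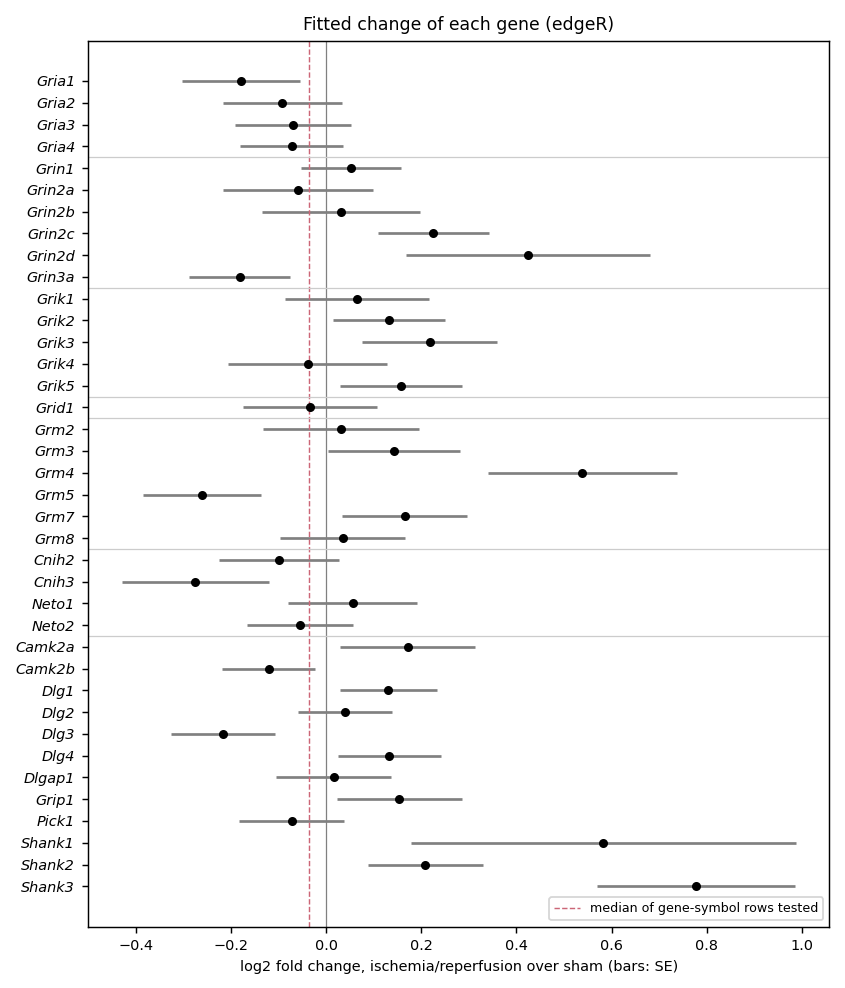
Log2 fold change of ischemia/reperfusion over sham for each of the 38 genes, grouped by role, with bars of 1 standard error (edgeR, 3 libraries per group). Shank3 at 0.78 lies farthest to the right and Cnih3 at −0.28 farthest to the left, and 34 of 38 genes lie within 0.3 of 0.

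Library totals ran from 45425867 to 49686109 counts. Abundance within a gene is given below as CPM, counts scaled to a common library total with the TMM factors of edgeR, and levels between genes as the deposited RPKM, which divides by row length. The ischemia/reperfusion libraries stood apart from one another more than the sham libraries did. In these genes the coefficient of variation of CPM had a median of 7.96% in sham and 16.6% in ischemia/reperfusion, and it was larger in ischemia/reperfusion for 32 of 38. Among 10534 gene-symbol rows of at least comparable abundance the medians were 6.82% and 10.2%, and 69.2% had the larger value in ischemia/reperfusion. Ischemia/reperfusion replicate 2 was the highest of all 6 libraries for 24 of 38 genes, whereas it was the highest for 12.4% of those 10534 gene-symbol rows. Ischemia/reperfusion replicate 1 was the lowest library for 16 of the 38, against 22.2% of the same 10534 rows. Within the group, replicate 2 exceeded replicate 1 for 34 of 38 genes, with a median difference of 0.37 on the log2 scale. For 21 of 38 genes the ischemia/reperfusion group had libraries both above and below all 3 sham libraries. Leaving out 1 library moved the log2 fold change by over 1.5 times, or to the other sign, for 37 of 38 genes (the other sign for 18). Shank3 was the exception.

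**Figure D2:**
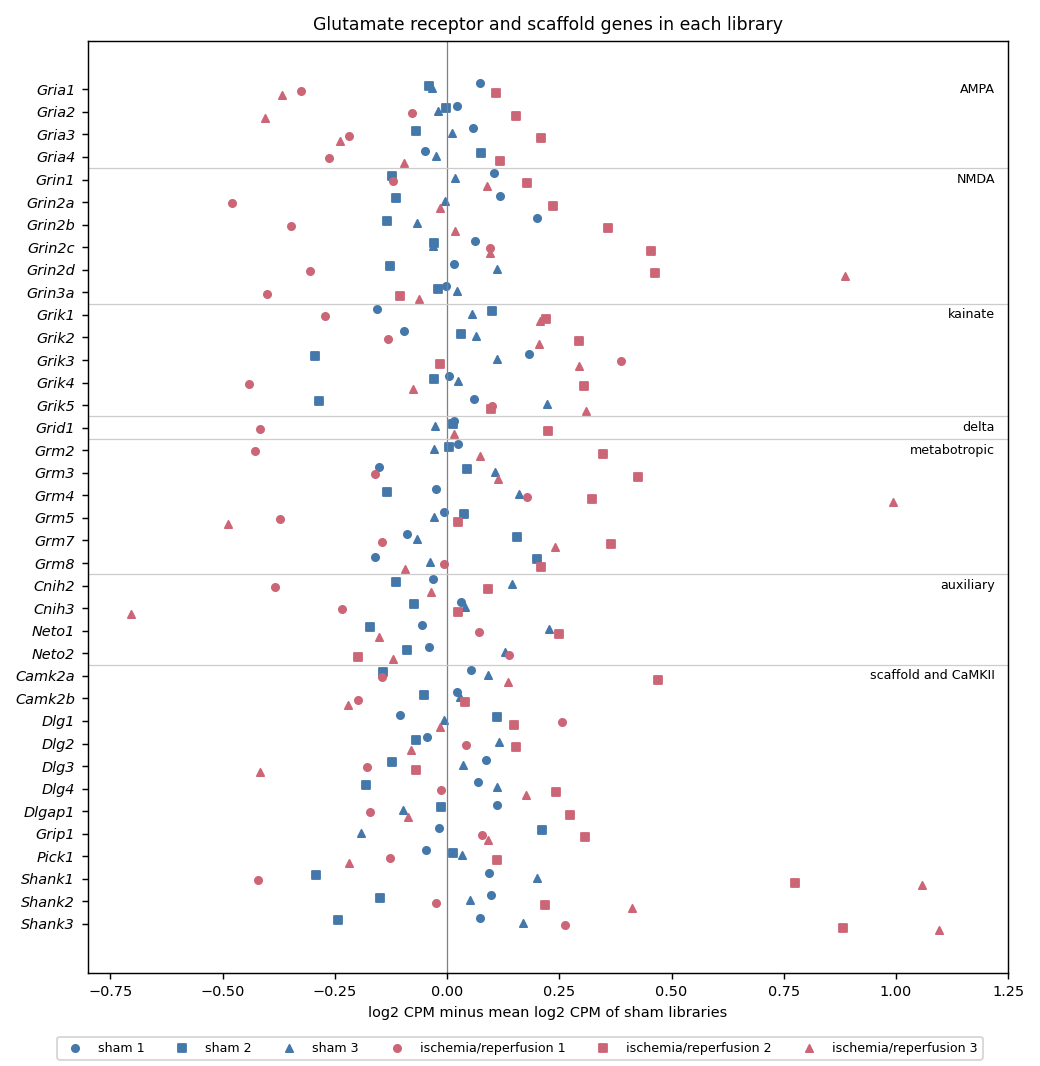
Log2 CPM of each gene in each of the 6 libraries, as the difference from the mean log2 CPM of the 3 sham libraries. Ischemia/reperfusion replicate 2 (red squares) is the highest library for 24 of 38 genes and replicate 1 (red circles) the lowest for 16, so the red symbols of 1 gene often lie on both sides of the blue ones.

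Markers of brain regions differed between the same libraries. The summed CPM of 5 hippocampal markers was 90.2, 93.2 and 76.2 in the sham libraries and 23.7, 119 and 93.9 after ischemia/reperfusion replicates 1, 2 and 3. None of the 5 was at 0, but Dsp, a marker of the dentate gyrus, had 0.783 CPM in ischemia/reperfusion replicate 1 against 14.2 to 22.5 CPM in sham. For 7 of 8 striatal projection neuron markers, all that matched, the sums were 245, 177 and 395 CPM in the sham libraries and 640, 190 and 281 CPM after ischemia/reperfusion. The 7 myelin markers summed to between 4660 and 5730 CPM in sham and to 3759, 4766 and 9673 CPM in ischemia/reperfusion. Replicate 1 thus had the least hippocampal and the most striatal marker RNA of its group, and replicate 3 the most myelin RNA. Sums for 10 pan-neuronal markers ran from 4899 to 5095 CPM in the sham libraries and were 4319, 5170 and 4433 CPM in ischemia/reperfusion, with replicate 2 again the highest of its group. Tubb3 and Stmn2 were the 2 of these 10 (20%) with an unadjusted p under 0.05, both lower, against 8.71% of gene-symbol rows lower. The 8 cortical excitatory markers summed to between 730 and 842 CPM in sham and to between 694 and 861 CPM in ischemia/reperfusion. The 10 astrocyte markers summed to between 5694 and 5880 CPM in sham and to between 4794 and 5281 CPM in ischemia/reperfusion, groups that did not overlap. Of these 10, 4 (40%) had an unadjusted p under 0.05, all lower, against 8.71% of gene-symbol rows lower. The 6 inhibitory neuron markers summed to between 561 and 574 CPM in sham and to 736, 626 and 575 CPM in ischemia/reperfusion. Replicate 1 was the highest, and the groups were only narrowly apart (574 and 575 CPM). Members went both ways, 4 positive and 2 negative, with log2 fold changes from −0.42 to 0.40. At an unadjusted edgeR p under 0.05, 1 was higher and 1 lower, against 6.39% and 8.71% of gene-symbol rows. The part of these markers in the results below was not tested.

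AMPA receptor subunits all had negative log2 fold changes, from −0.18 to −0.07, with a median of −0.08, and none had groups that were apart. Gria1, which encodes GluA1 and had the highest RPKM of the 4 (76.6 ± 3.70 in sham, SD, n = 3), had 491, 454 and 456 CPM in the sham libraries and 372, 503 and 362 CPM after ischemia/reperfusion. Its ischemia/reperfusion replicates 1 and 3 were below every sham library and replicate 2 was above every one. The log2 fold change of Gria1 was −0.18 ± 0.12 (SE; edgeR adjusted p = 0.505), and without ischemia/reperfusion replicate 2 it was −0.35 (edgeR adjusted p = 0.157). Gria2 encodes GluA2, the subunit whose edited form makes the channel nearly impermeable to calcium. It had 572, 562 and 555 CPM in the sham libraries and 534, 626 and 425 CPM after ischemia/reperfusion, a range that enclosed the sham libraries. Its log2 fold change was −0.09 ± 0.13 (SE; edgeR adjusted p = 0.754), and 0.04 without ischemia/reperfusion replicate 3. Gria3 and Gria4 had log2 fold changes of −0.07 each, and 0.0058 without ischemia/reperfusion replicate 3 (Gria3) and 0.0052 without replicate 1 (Gria4).

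Since GluA2 governs calcium entry, the share of Gria2 in the summed RPKM of Gria1 to Gria4 was set side by side between groups. It was 37.4%, 38.3% and 37.9% in the sham libraries and 41.4%, 38.2% and 36.1% after ischemia/reperfusion. The means were 37.8% ± 0.468 and 38.6% ± 2.67 (SD, n = 3 each), a difference of 0.757 points that was within the spread of the ischemia/reperfusion libraries (exact permutation test, two-sided, p = 0.8). With 3 libraries against 3, the smallest p such a test can give is 0.1, so none of the 5 shares compared could pass 0.05. Gene-level abundance does not show the editing of the Gria2 transcript. The share of Gria1 was 41.6%, 40.1% and 40.4% in the sham libraries and 37.5%, 39.8% and 39.8% after ischemia/reperfusion. Its groups did not overlap, and it was not tested.

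NMDA receptor subunits centred on a log2 fold change of 0.04 (median), 4 of them positive and 2 negative, and on −0.09 without ischemia/reperfusion replicate 2. Grin1, the obligatory GluN1 subunit and the NMDA gene with the highest RPKM (59.8 ± 5.23 in sham, SD, n = 3), had 277, 237 and 261 CPM in the sham libraries and 237, 292 and 274 CPM after ischemia/reperfusion. The 2 ranges overlapped almost entirely, and the log2 fold change was 0.05 ± 0.11 (SE; edgeR adjusted p = 0.844). Grin2a, whose product GluN2A is the mature synaptic subunit, had 200, 170 and 184 CPM in the sham libraries and 132, 217 and 182 CPM after ischemia/reperfusion. Grin2b, whose product GluN2B is the best known partner in excitotoxic signalling, had 337, 267 and 280 CPM in the sham libraries and 231, 376 and 297 CPM after ischemia/reperfusion. In both genes ischemia/reperfusion replicate 1 was the lowest of the 6 libraries and replicate 2 the highest. The log2 fold changes were −0.06 ± 0.16 for Grin2a (SE; edgeR adjusted p = 0.881) and 0.03 ± 0.17 for Grin2b (SE; edgeR adjusted p = 0.946). Both changed sign without 1 library, Grin2a to 0.10 without replicate 1 and Grin2b to −0.16 without replicate 2 of ischemia/reperfusion.

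The remaining NMDA subunits were less abundant. Grin2c, typical of cerebellum and some glia, had 40.6, 38.1 and 38.0 CPM in the sham libraries and 41.6, 53.3 and 41.6 CPM after ischemia/reperfusion. Cerebellar neuron markers were scarce in all libraries, with a sum over 5 genes of 17.5 to 26.8 CPM and Gabra6 under the count filter. Grin3a, a subunit that lowers calcium entry, had 66.8, 65.9 and 68.0 CPM in the sham libraries and 50.6, 62.2 and 64.1 CPM after ischemia/reperfusion. These 2 genes had groups that did not overlap, Grin2c higher with a log2 fold change of 0.23 ± 0.12 (SE) and Grin3a lower with −0.18 ± 0.11 (SE). Without ischemia/reperfusion replicate 2 the value of Grin2c was 0.094, and without replicate 1 that of Grin3a was −0.092. Neither was called, with edgeR adjusted p-values of 0.370 and 0.425. In the whole list 4 of 38 genes (10.5%) had groups that did not overlap, Shank3, Grm4 and Grin2c higher and Grin3a lower, against a background of 21.6% of all rows (10.8% in each direction) and, among gene-symbol rows, 7.37% higher and 14.2% lower. Grin2d, the least abundant gene of the 38 (1.82 ± 0.168 RPKM in sham, SD, n = 3), had 8.19, 7.43 and 8.75 CPM in the sham libraries and 6.56, 11.2 and 15.0 CPM after ischemia/reperfusion. Its replicate 1 was below every sham library and its replicates 2 and 3 above every one, which gave a log2 fold change of 0.42 ± 0.26 (SE; edgeR adjusted p = 0.454), and 0.12 without replicate 3.

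Grin2a made up 44.6%, 45.5% and 46.4% of the summed RPKM of Grin2a to Grin2d in the sham libraries and 41.8%, 43.1% and 43.9% after ischemia/reperfusion. All 3 ischemia/reperfusion libraries were below all 3 sham libraries. The means were 45.5% ± 0.902 and 42.9% ± 1.06 (SD, n = 3 each), a difference of −2.55 points with p = 0.1, the smallest an exact permutation test can give here, and 0.5 after Benjamini-Hochberg adjustment over the 5 shares. Over the same libraries Grin2b had 43.6% in sham and 44.0% in ischemia/reperfusion, Grin2c 8.87% and 10.4%, and Grin2d 2.07% and 2.72%. These other shares were not tested.

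**Figure D3:**
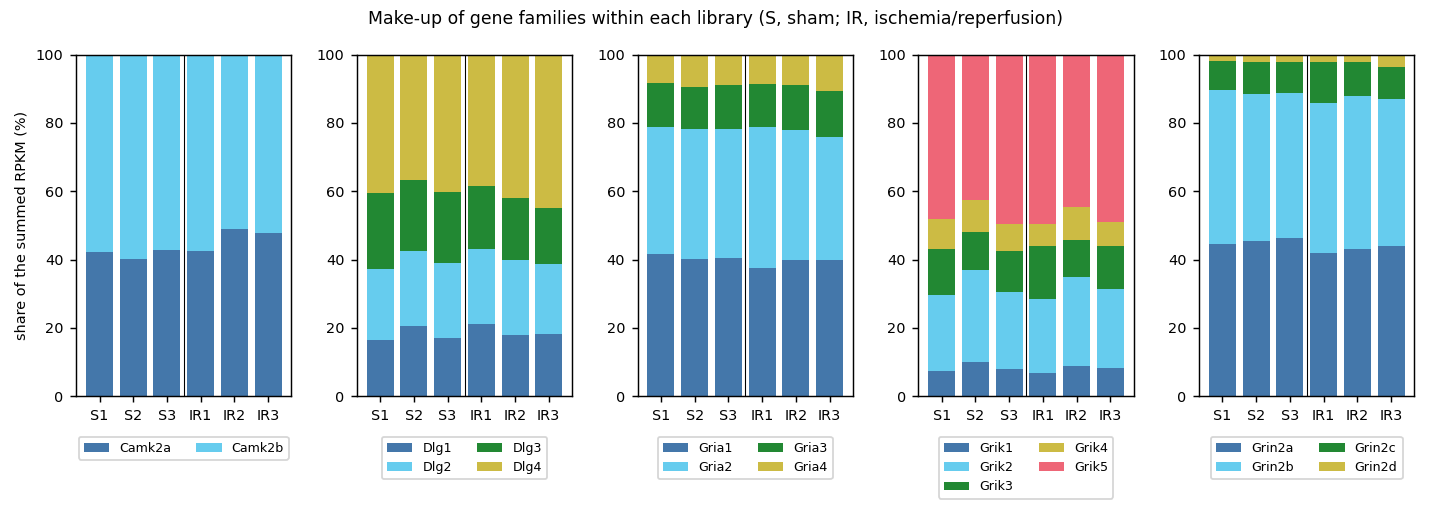
Stacked bars of the share of each gene in the summed RPKM of its family, in percent, for each of the 6 libraries. The 3 ischemia/reperfusion values of the Grin2a share (41.8% to 43.9%) lie below the 3 sham values (44.6% to 46.4%), whereas the groups overlap for the Gria2, Camk2a, Grik2 and Dlg4 shares.

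Kainate receptor genes had a median of 0.13 on the log2 fold change scale, 4 of 5 positive, and their groups overlapped throughout. Grik5, which encodes the high-affinity subunit GluK5 and was the most abundant of the family (20.6 ± 3.80 RPKM in sham, SD, n = 3), had 83.4, 65.6 and 93.3 CPM in the sham libraries and 85.7, 85.5 and 99.0 CPM after ischemia/reperfusion. Its log2 fold change of 0.16 ± 0.13 (SE) had an edgeR adjusted p of 0.574, and was 0.025 without sham replicate 2 and 0.27 without sham replicate 3. Grik2, which encodes the channel-forming subunit GluK2, had 48.7, 53.2 and 54.4 CPM in the sham libraries and 47.5, 63.8 and 60.0 CPM after ischemia/reperfusion. Its log2 fold change was 0.13 ± 0.12 (SE; edgeR adjusted p = 0.614). The share of Grik2 in the family's summed RPKM was 24.0% ± 2.72 in sham and 23.8% ± 2.34 in ischemia/reperfusion (SD, n = 3 each; exact permutation test, two-sided, p = 0.9). Grik1, Grik3 and Grik4 had log2 fold changes of 0.06, 0.22 and −0.04. The delta receptor gene Grid1, a synaptic organiser, had 48.4, 48.3 and 47.0 CPM in the sham libraries and 35.9, 56.0 and 48.4 CPM after ischemia/reperfusion. Its log2 fold change was −0.03 ± 0.14 (SE; edgeR adjusted p = 0.925). The sham libraries of Grid1 were close together, while ischemia/reperfusion replicate 1 lay far below them and replicate 2 far above.

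For metabotropic receptor genes the median log2 fold change was 0.09, and −0.04 without ischemia/reperfusion replicate 2, and 5 of 6 were positive. Grm5, which encodes the postsynaptic group I receptor mGluR5 linked to calcium release and was the most abundant of the 6 (35.2 ± 0.437 RPKM in sham, SD, n = 3), had 305, 314 and 300 CPM in the sham libraries and 237, 312 and 219 CPM after ischemia/reperfusion. As in Gria1, replicates 1 and 3 were below every sham library and replicate 2 was not. The log2 fold change was −0.26 ± 0.12 (SE; edgeR adjusted p = 0.338), and −0.43 without ischemia/reperfusion replicate 2 (edgeR adjusted p = 0.112). Grm4, which encodes the presynaptic group III receptor mGluR4, had 16.2, 15.0 and 18.5 CPM in the sham libraries and 18.7, 20.7 and 32.9 CPM after ischemia/reperfusion. All 3 ischemia/reperfusion libraries were above all sham libraries, replicate 1 only just and replicate 3 by far the most. The log2 fold change was 0.54 ± 0.20 (SE; unadjusted p = 0.0222, edgeR adjusted p = 0.254), and 0.24 without ischemia/reperfusion replicate 3. Grm2 and Grm3, the group II autoreceptors, had log2 fold changes of 0.03 and 0.14, and Grm7 and Grm8, the other group III genes, 0.16 and 0.03.

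For auxiliary subunit genes the median log2 fold change was −0.08, and 1 of 4 was positive. Cnih2, which encodes a cornichon that slows AMPA receptor closing and was the most abundant of these (62.1 ± 6.37 RPKM in sham, SD, n = 3), had 76.4, 72.2 and 86.3 CPM in the sham libraries and 59.9, 83.2 and 76.2 CPM after ischemia/reperfusion. The groups overlapped, with a log2 fold change of −0.10 ± 0.13 (SE; edgeR adjusted p = 0.732). Its relative Cnih3 had the lowest log2 fold change of the 38 genes with all 6 libraries. That rank went to Grin3a (−0.25) without ischemia/reperfusion replicate 3, and to Grm5 without sham replicate 1 (−0.27) or sham replicate 3 (−0.28). Cnih3 had 76.8, 71.4 and 77.3 CPM in the sham libraries and 63.8, 76.4 and 46.1 CPM after ischemia/reperfusion. Replicates 1 and 3 of ischemia/reperfusion were below the sham range and replicate 2 within it, and the log2 fold change was −0.28 ± 0.15 (SE; edgeR adjusted p = 0.413). It was −0.10 without ischemia/reperfusion replicate 3 and −0.45 without replicate 2. Neto1 and Neto2, auxiliary subunits of kainate receptors, had log2 fold changes of 0.06 and −0.06.

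Scaffold genes included the 3 Shank genes, which encode the deepest layer of the postsynaptic density. Shank3 lies on chromosome 15 from 89499857 to 89560260 (mm10, plus strand). Its promoter is shown because Shank3 had the smallest p of the list. RefSeq (GRCm38.p6) gives the 300 bases around 1 of its start sites, 250 before and 50 after, at chr15:89499358-89499657 on the plus strand, and capitals mark a match to the GC box, GGGGCGGGG, on the other strand.
Shank3 promoter: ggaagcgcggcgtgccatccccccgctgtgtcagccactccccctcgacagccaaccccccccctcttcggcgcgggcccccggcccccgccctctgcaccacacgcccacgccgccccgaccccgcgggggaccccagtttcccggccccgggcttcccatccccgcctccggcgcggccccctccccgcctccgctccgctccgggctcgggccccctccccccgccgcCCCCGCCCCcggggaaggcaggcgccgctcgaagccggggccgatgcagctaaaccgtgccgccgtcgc
This window held 40 CpG dinucleotides and was 81.0% G or C, against medians of 7 and 52.7% over 32851 RefSeq promoters of the same length, and 96.1% of those had fewer CpG. Of the 38 genes, 25 matched RefSeq promoters, 41 in all. These 41 had medians of 15 CpG and 61% G or C. Some held more CpG than the Shank3 window, such as those of Camk2b (51) and Grik3 (50). The GC box, searched on both strands, was found in 7 of these 41 (of Cnih2, Dlg4, Grik5, Grin2c, Grm2, Grm3 and Shank3) and in 11.4% of all promoters. A match is a description of letters, and the expression files hold no measurement at promoters.

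Shank3 had 60.3, 48.4 and 64.4 CPM in the sham libraries and 68.7, 106 and 122 CPM after ischemia/reperfusion. All 3 ischemia/reperfusion libraries were above all sham libraries, replicate 1 only narrowly. The means were 57.7 ± 8.33 and 98.9 ± 27.5 CPM (SD, n = 3 each), or 0.78 ± 0.21 as log2 fold change (SE; unadjusted p = 0.00566, edgeR adjusted p = 0.190). DESeq2 called Shank3 (adjusted p = 0.0108, Benjamini-Hochberg) and none of the other 37 genes, where it called 1.7% of the 33934 rows to which it gave an adjusted p. The edgeR adjusted p of Shank3 was 0.0082 without ischemia/reperfusion replicate 1, with a log2 fold change of 0.97, and 0.281 to 0.506 without any other single library.

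Shank1 and Shank2 showed the same order of ischemia/reperfusion libraries as Shank3. Shank1 had 89.3, 68.4 and 96.2 CPM in the sham libraries and 62.6, 143 and 174 CPM after ischemia/reperfusion, so replicate 1 was the lowest of all 6 libraries and replicates 2 and 3 the highest. Its log2 fold change of 0.58 ± 0.40 had the largest standard error of the 38 genes (edgeR adjusted p = 0.540), and was 0.28 without ischemia/reperfusion replicate 3. Shank2 had 71.6, 60.3 and 69.3 CPM in the sham libraries and 65.7, 77.8 and 89.0 CPM after ischemia/reperfusion, with a log2 fold change of 0.21 ± 0.12 (SE; edgeR adjusted p = 0.422). Without ischemia/reperfusion replicate 1, the library with the lowest hippocampal and highest striatal marker sums, 3 of the 38 genes were called by edgeR, all higher. They were Shank3, Shank1 (log2 fold change 0.90, adjusted p = 0.0177) and Grin2d (0.68, adjusted p = 0.0415). The same fit called 1057 of 40919 rows. Leaving out any other library gave 0 calls among the 38.

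**Figure D4:**
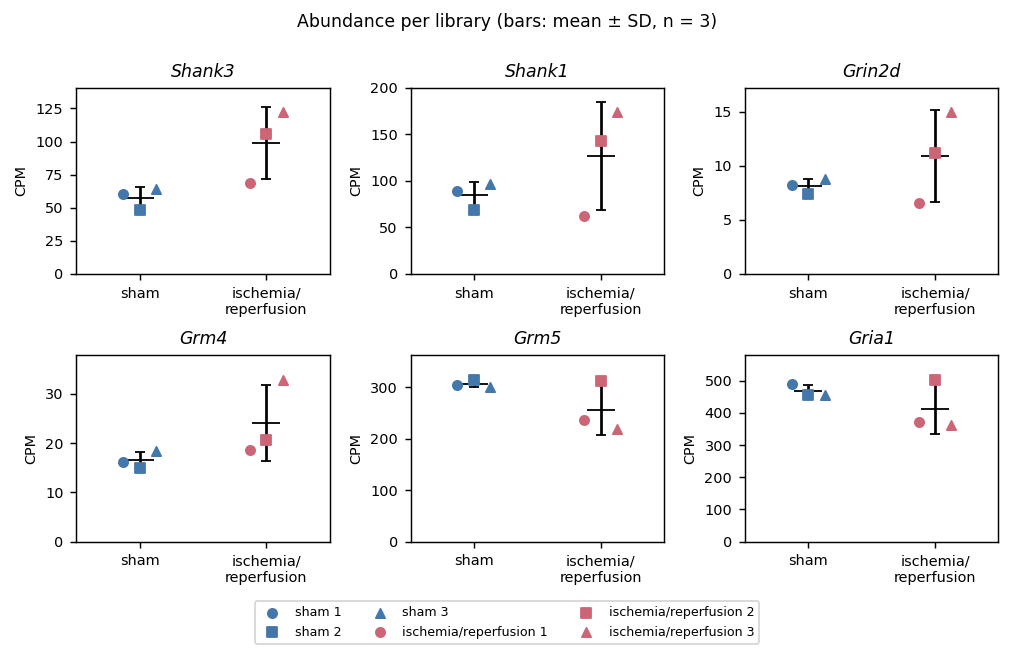
CPM of 6 genes in each library, with the mean and SD of 3 libraries per group. In Shank3, Shank1, Grin2d and Grm4 ischemia/reperfusion replicate 1 is the lowest and replicate 3 the highest of its group, and in Grm5 and Gria1 replicate 2 is the highest of its group while replicates 1 and 3 lie below the sham libraries.

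The MAGUK genes Dlg1 to Dlg4 had log2 fold changes of 0.13, 0.04, −0.22 and 0.13. Dlg4, which encodes PSD-95, the core scaffold of the excitatory synapse, had 186, 157 and 192 CPM in the sham libraries and 176, 210 and 201 CPM after ischemia/reperfusion. The 2 groups overlapped, and the log2 fold change was 0.13 ± 0.11 (SE; edgeR adjusted p = 0.574). Dlg3, which encodes SAP102, had 173, 150 and 167 CPM in the sham libraries and 144, 155 and 122 CPM after ischemia/reperfusion. Its groups overlapped by 1 library, with a log2 fold change of −0.22 ± 0.11 (SE; edgeR adjusted p = 0.357). In the summed RPKM of the 4 genes Dlg4 had 39.2% ± 2.12 in sham and 41.8% ± 3.34 in ischemia/reperfusion (SD, n = 3 each; exact permutation test, two-sided, p = 0.4). The Dlg3 share was 22.3%, 20.7% and 20.6% in the sham libraries and 18.5%, 18.3% and 16.2% after ischemia/reperfusion. Its groups did not overlap, and it was not tested. Dlgap1, which links PSD-95 to the Shank proteins, had 285, 262 and 247 CPM in the sham libraries and 235, 319 and 248 CPM after ischemia/reperfusion. At 0.02 ± 0.12 (SE; edgeR adjusted p = 0.963) it had the log2 fold change nearest to 0 of the list. Grip1 and Pick1, PDZ proteins that bind the GluA2 tail, had log2 fold changes of 0.15 and −0.07.

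Camk2a and Camk2b encode the main neuronal subunits of CaMKII, the calcium-activated kinase of the postsynaptic density, and had the 2 highest RPKM values of the list in sham (96.3 ± 9.19 and 134 ± 5.50, SD, n = 3). Camk2a had 545, 476 and 559 CPM in the sham libraries and 475, 728 and 577 CPM after ischemia/reperfusion. Camk2b had 579, 551 and 581 CPM in the sham libraries and 497, 587 and 490 CPM after ischemia/reperfusion. Each gene had ischemia/reperfusion libraries on both sides of its sham range. The log2 fold changes had opposite signs, 0.17 ± 0.14 for Camk2a (SE; edgeR adjusted p = 0.581) and −0.12 ± 0.10 for Camk2b (SE; edgeR adjusted p = 0.571). The share of Camk2a in the RPKM of both was 42.2%, 40.2% and 42.8% in the sham libraries and 42.6%, 49.1% and 47.8% after ischemia/reperfusion. Replicates 2 and 3 were above the sham range and replicate 1 was within it. The means were 41.7% ± 1.37 and 46.5% ± 3.44 (SD, n = 3 each), a difference of 4.77 points (exact permutation test, two-sided, p = 0.2, and 0.5 adjusted over the 5 shares).

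Other genes of the glutamatergic synapse, taken from lists of genes outside the 38, gave no call either. Of the other AMPA receptor auxiliary genes, 13 of 14 matched and were tested. At an unadjusted p under 0.05, 3 (23.1%) were higher and 0 lower. The background was 8.73% higher and 6.9% lower among all rows, and 6.39% and 8.71% among gene-symbol rows. Cacng3, a TARP subunit of AMPA receptors, had 16.5, 18.7 and 18.5 CPM in the sham libraries and 25.1, 24.6 and 20.8 CPM after ischemia/reperfusion (log2 fold change 0.39, edgeR adjusted p = 0.192). Its groups were apart, unlike those of any AMPA receptor subunit gene. Cacng4, another TARP, had a log2 fold change of 0.62 (edgeR adjusted p = 0.264). Nptx2, an activity-induced pentraxin that clusters AMPA receptors, had 28.0, 80.8 and 48.3 CPM in the sham libraries and 168, 91.0 and 130 CPM after ischemia/reperfusion (log2 fold change 1.30, edgeR adjusted p = 0.298). Nptx2 was highest in replicate 1, the library where Shank1 and the GluN2 genes Grin2a and Grin2b were lowest.

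Of the other postsynaptic density genes, 29 of 30 matched and were tested, with a median log2 fold change of 0.02. At an unadjusted p under 0.05, 6 were higher and 2 lower, 27.6% of the 29 in all. Of gene-symbol rows, 15.1% passed in either direction (6.39% higher and 8.71% lower). Dlgap2, a relative of Dlgap1, had 31.5, 27.8 and 28.8 CPM in the sham libraries and 37.6, 42.8 and 38.8 CPM after ischemia/reperfusion (log2 fold change 0.44, edgeR adjusted p = 0.152). Dlgap4 had 73.2, 65.5 and 74.7 CPM in the sham libraries and 89.2, 89.2 and 110 CPM after ischemia/reperfusion (log2 fold change 0.44, edgeR adjusted p = 0.158). Both had groups that were apart, as did Dlgap3 (log2 fold change 0.40, edgeR adjusted p = 0.184), whereas Dlgap1 had 0.02. Arc, the activity-induced gene whose product removes AMPA receptors from synapses, had 49.99, 52.5 and 39.0 CPM in the sham libraries and 288, 114 and 190 CPM after ischemia/reperfusion (log2 fold change 2.07, edgeR adjusted p = 0.155). The 2 lower genes were the other CaMKII genes, Camk2d (log2 fold change −0.37, edgeR adjusted p = 0.189) and Camk2g (−0.25, edgeR adjusted p = 0.249). Grin3b, a further NMDA receptor subunit gene, had a log2 fold change of 0.03 (edgeR adjusted p = 0.938). Of 13 genes of glutamate release and uptake, 0 were higher and 1 (7.69%) was lower with an unadjusted p under 0.05. Among gene-symbol rows, 6.39% were higher and 8.71% lower. The 1 lower gene was Glul, the glutamine synthetase of astrocytes, with a log2 fold change of −0.34 (edgeR adjusted p = 0.193).

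The table also holds rows for FANTOM3 cDNA clones, and 159 of these overlap 31 of the 38 genes on the same strand. Of these, 145 rows on 29 genes were tested, and 0 were called by edgeR. At an unadjusted p under 0.05, 22 (15.2%) were higher and 5 (3.45%) lower, against 10.4% and 5.63% of all clone rows. Their median log2 fold change was 0.15, against 0.09 for all clone rows and 0.04 for the 38 gene rows. The rows were also split by level, at a boundary chosen after their values were seen, and the difference between the 2 sets was not tested. The 26 clone rows at 25% or more of the RPKM of their gene had a median of −0.02, with 1 higher and 3 lower, and the 119 below 25% had a median of 0.21, with 21 higher and 2 lower. Grip1, Dlgap1 and Shank3 held many of these higher rows. Without them 8 of 102 low rows (7.84%) were higher at that p, below the 10.4% of all clone rows, with a median of 0.17. Clone rows lie within the same genes and may share reads, so they are not independent measurements. Whether a clone lies in an exon or an intron is not given, since no exon annotation was used here.

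**Figure D5:**
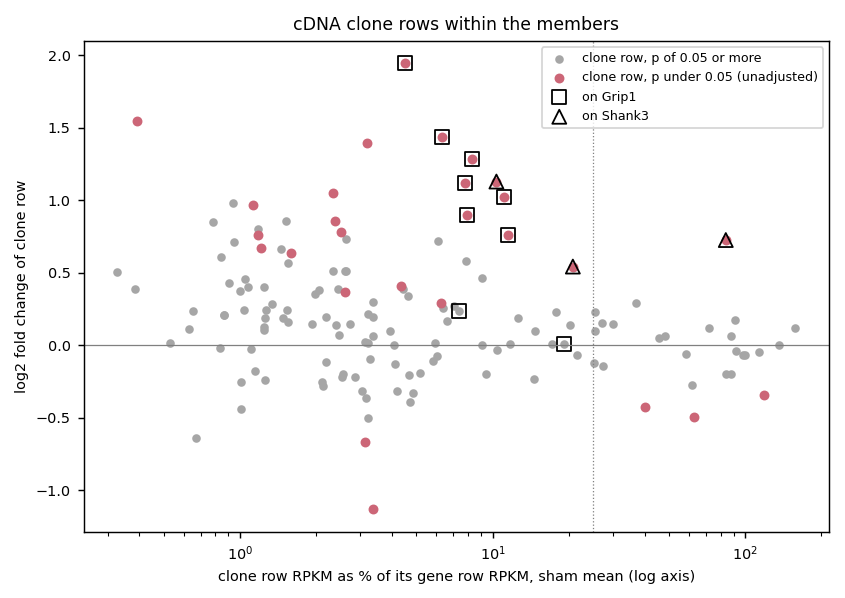
Log2 fold change of 145 clone rows that overlap the 38 genes, against the RPKM of the clone row as a percentage of the RPKM of its gene row (sham mean, log axis, dotted line at 25%). Rows with an unadjusted p under 0.05 (red) are mostly above 0 to the left of the line (21 higher, 2 lower), where 7 of the 9 rows on Grip1 lie among them.

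Grip1 showed the widest gap between its own row and its clones. Its gene row had 17.1, 20.1 and 15.2 CPM in the sham libraries and 18.3, 21.5 and 18.5 CPM after ischemia/reperfusion, with a log2 fold change of 0.15. Of its 9 tested clone rows, 7 were higher at an unadjusted p under 0.05, with a median of 1.03 over the 9. Clone B130020M22, on chromosome 10 from 119501616 to 119502795, had 0.205, 0.0859 and 0.145 CPM in the sham libraries and 0.502, 0.670 and 0.536 CPM after ischemia/reperfusion (log2 fold change 1.95 ± 0.45, edgeR adjusted p = 0.150). All its ischemia/reperfusion values were above all its sham values, but each rests on few counts. Dlgap1 had 7 of 7 clone rows with a positive log2 fold change, 4 of them at an unadjusted p under 0.05. Their median was 0.64, beside the 0.02 of the gene row. In Shank3 all 3 clone rows were higher, with a median of 0.73, close to the gene row. Clone B230216K14, at 89524770 to 89528469 within Shank3, had 3.36, 2.53 and 3.41 CPM in the sham libraries and 4.72, 6.72 and 8.94 CPM after ischemia/reperfusion (log2 fold change 1.13 ± 0.23, edgeR adjusted p = 0.147), in the same library order as the gene.

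A further split, by distance to the 3′ end of the gene, was also chosen after the values were seen. Among clone rows at 25% or more of their gene's RPKM, the 18 that end within 5000 bases of the 3′ end had a median log2 fold change of −0.06, and 3 of the 18 were above their gene row. The other 8 had a median of 0.10, and 6 of the 8 were above it. In Grm5, clone C130031C15 (chromosome 7, 88131337 to 88133715), 1348 bases from the 3′ end, had 54.4, 54.4 and 52.0 CPM in the sham libraries and 37.4, 44.8 and 32.0 CPM after ischemia/reperfusion. Here all 3 ischemia/reperfusion libraries, replicate 2 included, were below all sham libraries, with a log2 fold change of −0.49 ± 0.12 (SE; edgeR adjusted p = 0.155) beside −0.26 for Grm5 itself. In Gria2, clone B230212C17 at the 3′ end had 63.1, 60.8 and 63.6 CPM in the sham libraries and 51.7, 52.2 and 35.8 CPM after ischemia/reperfusion (log2 fold change −0.42, edgeR adjusted p = 0.208). Clone B230308O15 at the other end of Gria2 had a log2 fold change of 0.06, and clone C630020C24 in between had 0.41 (edgeR adjusted p = 0.184). Clone C630020C24 had 12.1, 13.4 and 12.1 CPM in the sham libraries and 16.2, 17.8 and 15.8 CPM after ischemia/reperfusion, all above sham, while the gene row overlapped. No difference between rows of 1 gene was tested.

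In the authors' deposited table of the same comparison, 26 of the 38 genes (68.4%) have a q-value under 0.05, 19 higher and 7 lower, against 35.2% of its gene-symbol rows. For 22 of these 26 genes the 3 ischemia/reperfusion libraries overlapped the 3 sham libraries in CPM. Gria1 is one example, with a q-value of 1.06e-17 and a log2 fold change of −0.13 in the authors' deposited table. Their test is unstated.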

How the data were processed

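Ribosomal RNA was removed from total RNA of mouse brain, and libraries made with the NEBNext Ultra RNA kit were read as pairs on an Illumina HiSeq, per the labels' protocols. The build was mm10, per the submitters' processing notes. Aligner, counter, annotation and strand use are unknown (not given in the sources used here), so reads of antisense and overlapping rows may be mixed. The deposited counts are raw whole numbers per row. The deposited RPKM values equal counts per kilobase of row length and per 1e6 column counts in 100% of values (relative tolerance 0.001). The authors' table holds group means of RPKM, their log2 ratio as the authors computed it, and deposited p-values and q-values.

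Counts of 3 sham and 3 ischemia/reperfusion libraries were tested with edgeR 4.0.16 (R 4.3.3), with TMM factors, filterByExpr and the two-sided quasi-likelihood F test with robust estimation, adjusted by Benjamini-Hochberg over 40170 rows at a threshold of 0.05. All 38 genes passed the filter. Family shares were compared on RPKM by exact permutation tests. Alternatives were other size factors, filters and rows, DESeq2 1.42.0, limma-voom (limma 3.58.1), the replicate number as a block and leaving out each library. Tests were tested on 40170 simulated rows, where edgeR recovered 83% of rows changed 2-fold in this comparison. The simulated counts were independent, had the same dispersion (taken from the fitted trend) in both groups, and only rows of at least 1 CPM were changed. They lacked the wider spread of the ischemia/reperfusion libraries, so the 83% does not show how many 2-fold changes would be called in the real counts. Of 147 listed genes, 143 matched by symbol and the others were not analysed here. Some list members are not reported here. Clone rows were assigned by an overlap of at least 1 base on the same strand.

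The 38 genes and all lists were chosen with earlier results of these data known. Named by rule were genes with an unadjusted p under 0.05, the most abundant gene of each family, the genes of the 5 shares, up to 3 genes per pathway list and 3 clone rows. Grin2c, Grin2d, Grin3a, Cnih3, Dlg3, Shank1, Shank2, Dlgap3, Camk2d, Camk2g, Dsp, the other clone rows and Grip1, and the splits of clone rows at 25% and 5000 bases, were chosen after their values were seen. So were the shares of Gria1 and Dlg3.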

Additional observations from a re-analysis of the deposited data

How the results depend on the processing

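Counts of calls depended on the setting. Over all rows edgeR called 1, and this became 2 with upper-quartile factors, 77 with no low-count filter, 0 with a mean of at least 1 CPM, 0 on gene-symbol rows only, 576 with DESeq2, 4 with limma-voom and 0 to 1057 without 1 library. Among the 38 genes the calls were 1 with DESeq2 (Shank3), 0 to 3 without 1 library and 0 otherwise. The number at an unadjusted p under 0.05 was 4 with no low-count filter. This was 10.5% of the 38, a smaller share than among all rows at that setting. The number was 1 to 10 without 1 library. Without ischemia/reperfusion replicate 1 it was 10, or 26.3%, all higher, against 21.1% of all rows. Without ischemia/reperfusion replicate 2 it was 9, or 23.7%, of which 3 were higher and 6 lower, against 15.4% of all rows. Genes with groups that did not overlap numbered 4, and up to 16 without 1 library (7 without sham replicate 2, and 16 and 15 without ischemia/reperfusion replicates 1 and 2, which is 18.4%, 42.1% and 39.5% against 31.9%, 39.3% and 33.8% of all rows). The replicate block gave 0 calls over all rows and 0 among the 38 genes. With it, 4 of the 38 (10.5%) had an unadjusted p under 0.05, below the 14.5% of all rows. Deviations of same-numbered libraries had correlations of −0.07, 0.03 and 0.11, so the numbers were not taken to pair the samples. Over pairs, the Grin2a and Camk2a shares had a sign-flip p of 0.25, the smallest that 3 pairs allow.

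Family medians moved when 1 library was left out. The NMDA and metabotropic medians were negative without ischemia/reperfusion replicate 2, and the NMDA median also without sham replicate 2 (−0.02). Without ischemia/reperfusion replicate 2 the AMPA receptor subunit genes ran from −0.35 (Gria1) to −0.18 (Gria4), against −0.18 to −0.07 with all 6 libraries. Of 224 values of 16 named members, 208 kept direction and side of the threshold, 2 of Shank3 passed it, and 14 changed sign. Grid1 was 0.010 with upper-quartile factors, 0.0093 on gene-symbol rows only and −0.19 to 0.12 without 1 library. Over the fits that left out 1 library, Gria2 ran from −0.23 to 0.038, Grin1 from −0.017 to 0.12, Grin2a from −0.23 to 0.10, Grin2b from −0.16 to 0.18, Dlgap1 from −0.13 to 0.093, Camk2a from −0.0045 to 0.30 and Cnih2 from −0.21 to 0.016. In these genes the extremes came from leaving out replicate 1 or 2 of ischemia/reperfusion, except that the upper value of Gria2 came from leaving out replicate 3. The difference in the Gria2 share ran from −0.663 to 1.99 points and that in the Grik2 share from −1.52 to 1.30 points, and the other 3 shares kept their sign. The cause of these dependences was not tested.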
